A study of Mus musculus with 84 samples.

Results

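The 8 genes described here, Nodal, Gdf3, Tdgf1, Acvr1b, Acvr2b, Lefty1, Lefty2 and Foxh1, belong to the Nodal signaling pathway that pluripotent cells are known for, and were found by their symbols among the 18909 genes of the count table. They were followed in 30 libraries of the reprogramming of mouse embryonic fibroblasts (MEFs) to induced pluripotent stem cells, in 10 groups of 3 biological replicates. TNG MKOS MEFs, of 129 background and obtained from chimeric embryos, carry the MKOS reprogramming factors and mOrange in the Sp3 locus, switched on by doxycycline,, rtTA under the CAG promoter and a GFP knock-in at 1 Nanog allele. They were mixed with wild-type MEFs and infected with a retrovirus for BFP (Cont) or for a constitutively active SMAD3 (+Sm3CA). All 8 reprogramming groups, Cont and +Sm3CA on days 3, 6, 8 and 10, received doxycycline at 300 ng/ml with vitamin C, and mOrange-positive cells were sorted, which should leave out the wild-type MEFs. The other groups were wild-type MEFs without the factors, in medium with FGF2 and heparin, and embryonic stem cells (ESCs) of the TNG MKOS line in LIF medium, which represent 1 line.

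Nodal is a secreted ligand of the TGF-β family that signals through activin receptors, of which Acvr1b encodes a type I and Acvr2b a type II chain. Tdgf1 (Cripto) is the cell-surface co-receptor that Nodal needs, and Gdf3 is a related ligand. The activated receptors phosphorylate SMAD2 and SMAD3, which bind DNA with the forkhead protein FOXH1. Lefty1 and Lefty2 are secreted inhibitors of Nodal and are at the same time targets of the pathway, and in naive mouse ESCs the pathway is active but not needed for self-renewal.

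Reads marked the 5′ ends of transcripts, and levels are given as raw reads or as normalized counts, that is, reads divided by the size factor of the library. Libraries held between 1008596 and 2296059 reads, with a median of 1602511. Single reads were therefore a large part of the error of weak genes. Intervals given below cover counting error only, since the counts are taken as reads and not as molecules. A fold given as at least a value covers only the counting error of the group at 0 reads, and not that of the other group. Smad3 reads, which include those of the vector, were higher in each +Sm3CA library than in each Cont library of the same day, at a mean of 133 against 10.9 normalized counts on day 3 and 41.6 against 20.6 on day 10. The summed level of 6 ESC markers was 7.78 to 11.2 normalized counts in MEF, 332 to 822 in Cont day 10, 879 to 2076 in +Sm3CA day 10 and 27301 to 52975 in ESC. Of 6 fibroblast markers, all were detected in MEF and none was above 3 reads in any ESC library, with Col1a2 and Twist2 at 0. Of 3 immune markers (Ptprc, Lyz2 and Cd68), at least 2 were detected in every group but ESC, where Ptprc was at 0 and the sum was 12.9 to 34.3 normalized counts against 404 to 1764 in MEF, and in bulk samples fewer cells of a type and less RNA per cell cannot be told apart. MEF, ESC and day 3 shared plate rows, as did days 6 and 8, while day 10 had rows of its own, so that the other differences between days and plate rows cannot be told apart.

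The annotation (GENCODE M21 on GRCm38) places Lefty2 at chr1:180893108-180899103 and Lefty1 at chr1:180935022-180938400, both on the plus strand with 35919 bases between them. Over their whole transcripts they share sequence, with 28.8% of the 25-base words of Lefty1 also in Lefty2, but none lies in the first 200 bases where 5′ reads would fall. Tdgf1 lies at chr9:110939603-110946158 on the minus strand and shares 18.9% of its words with the pseudogene Tdgf1-ps1, again none in the first 200 bases. Nodal is at chr10:61417972-61425338, Gdf3 at chr6:122605403-122610087, Foxh1 at chr15:76668225-76669948, Acvr1b at chr15:101174067-101213684 and Acvr2b at chr9:119402118-119434995, the last overlapped by the antisense gene Gm47320, whose reads could be counted with it if strand was ignored.

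RefSeq promoter windows (GRCm38.p6) were held for 4 of the 8 genes, and those of Tdgf1 and Nodal are shown because both genes were at or near 0 reads in MEF and had their highest level in ESC, yet differ in the motifs of this window. Capitals mark matches to motifs read on both strands: AATNNACA for FOXH1, CAGACA for SMAD, ATGCAAAT for the POU octamer and GGGCGTGG for KLF factors. Each line gives the 250 bases before the start site, in the direction of the gene.
Tdgf1, chr9:110946159-110946408, minus strand: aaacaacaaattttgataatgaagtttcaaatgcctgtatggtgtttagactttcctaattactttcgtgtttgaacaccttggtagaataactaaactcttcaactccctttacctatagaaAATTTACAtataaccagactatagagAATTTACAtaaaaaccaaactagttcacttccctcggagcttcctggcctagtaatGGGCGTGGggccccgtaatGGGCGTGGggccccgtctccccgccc
Nodal, chr10:61417722-61417971, plus strand: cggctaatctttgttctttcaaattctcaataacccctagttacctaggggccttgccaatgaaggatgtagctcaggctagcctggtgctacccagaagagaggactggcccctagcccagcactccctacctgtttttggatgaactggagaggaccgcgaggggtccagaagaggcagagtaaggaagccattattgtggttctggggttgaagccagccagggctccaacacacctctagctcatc
The Tdgf1 window held the FOXH1 letters starting 127 and 101 bases before the start site and the KLF letters starting 45 and 26 bases before it. The Nodal window held none of the 4 motifs, which says only that these letters are not in these 250 bases. The windows of Acvr1b and Acvr2b, which are not shown, held none of them either. Among 32851 promoters, 10.9% held the FOXH1 letters, 17.1% the SMAD letters, 1.6% the octamer and 4.79% the KLF letters. The KLF motif was chosen after the Tdgf1 sequence was seen, so its share does not measure how uncommon that match is. Both KLF matches of Tdgf1 lie in a directly repeated stretch and are not separate finds. The matches are a description of letters and not of binding.

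The first comparison asked how the genes stand in MEFs and in ESCs, the start and the reference end of the process. Nodal had 0 reads in each MEF library and 65, 24 and 55 reads in ESC, or 57.8 ± 13.8 normalized counts (SD, n = 3). No MEF and ESC library overlapped, and the level was at least 58.9-fold higher in ESC, with the 0 taken as 3 reads over the group. Gdf3 had 0, 1 and 0 reads in MEF and 596, 75 and 304 in ESC, a ratio of 1197 with a 95% counting interval of 214 to 47329. Its ESC libraries spread widely, at 544, 135 and 391 normalized counts, yet each was far above MEF.

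The co-receptor gene was likewise close to silent in MEF. Tdgf1 was at 1 read in each MEF library and at 1726, 459 and 1237 reads in ESC, where it reached 1332 ± 436 normalized counts. The ratio was 1400.45 (95% counting interval 479 to 6794), and ESC again stood entirely above MEF. The receptor chains differed from each other. Acvr2b had 0 reads in MEF and 22, 15 and 19 in ESC, at least 22.9-fold higher. Acvr1b had 1, 0 and 3 reads in MEF and 0 reads in all 9 ESC wells, which allows a mean of up to 1.24 normalized counts. For the type I receptor the ESC libraries therefore did not show the gene as one of pluripotent cells, at this depth and for reads at the 5′ end.

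Both inhibitors and the nuclear cofactor were low in MEF and high in ESC. Lefty1 had 0 reads in MEF and 112, 43 and 47 in ESC, at least 82.7-fold higher. Lefty2 had 1 read over the 3 MEF libraries and 144, 99 and 83 in ESC, a ratio of 400.2 (95% counting interval 71.3 to 15857). Foxh1 had 0 reads in MEF and 38, 6 and 31 in ESC, at least 30.7-fold higher, and replicate 2 of ESC was much lower than the others. In each of these 3 genes no MEF library reached any ESC library.

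With edgeR's quasi-likelihood test, 6 of the 8 genes passed the filter on low counts and all 6 were higher in ESC than in MEF, where 52.3% of the genes tested were called in one or the other direction. Since each of the 6 had 3 reads or fewer over the MEF libraries and passed through its ESC reads, this count is a description of the filter as well. The adjusted p ranged from 3.3e-09 for Tdgf1 to 3.1e-05 for Acvr2b, and Foxh1 and Acvr1b were not tested. The plot of the genes by library shows all 8 genes over the 10 groups.

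**Figure D1:**
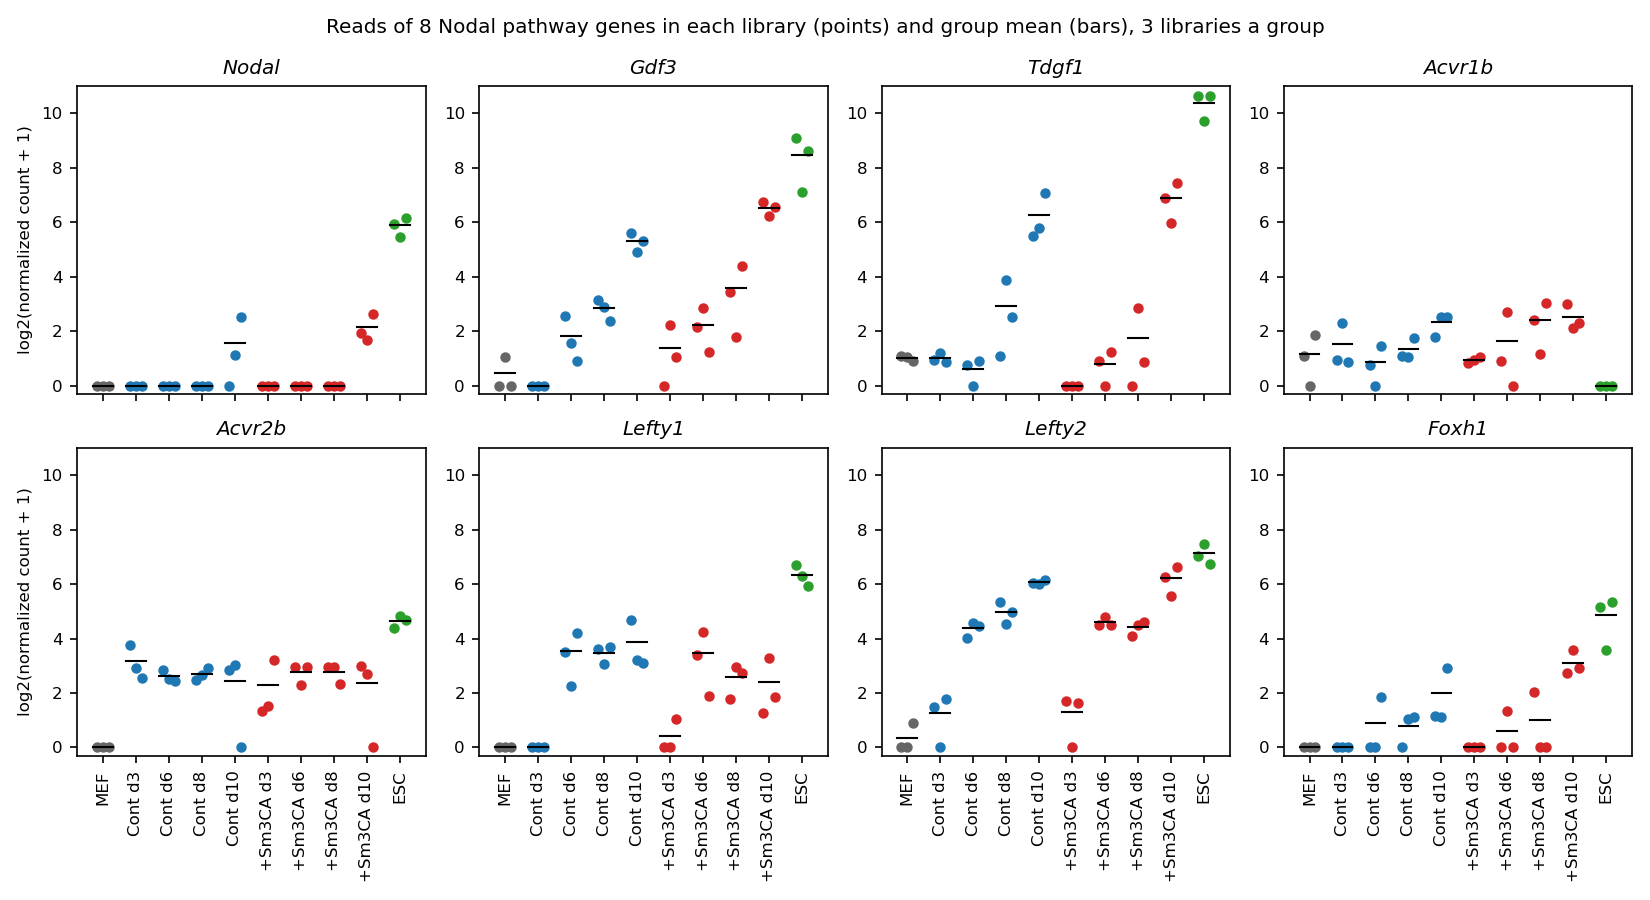
Normalized counts of the 8 genes on a log2(x + 1) axis, with 1 point for each of the 30 libraries and a bar for the mean of each group, grey for MEF, blue for Cont, red for +Sm3CA and green for ESC. ESC is the highest group for 7 genes, with 57.8 normalized counts of Nodal and 1332 of Tdgf1 on average, while Acvr1b is at 0 in ESC.

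During reprogramming the Lefty genes were the first to pass the test. On day 3 Lefty2 had 2, 0 and 3 reads in Cont and 3, 0 and 2 in +Sm3CA, and on day 6 it had 22, 24 and 24 in Cont and 25, 34 and 16 in +Sm3CA. Day 6 stood above day 3 without overlap in both series, with log2 fold changes of 3.53 ± 0.53 (SE, adjusted p = 2.3e-05, edgeR) and 3.88 ± 0.52 (adjusted p = 1.45e-06, edgeR). Lefty1 had 0 reads in Cont day 3 and 1 read in all of +Sm3CA day 3. On day 6 it had 15, 4 and 20 reads in Cont, at least 11.2-fold higher, and 11, 23 and 2 reads in +Sm3CA, a ratio of 37.6 (95% counting interval 6.33 to 1525). Both Lefty changes passed the test (adjusted p = 0.00122 in Cont and 0.00154 in +Sm3CA for Lefty1, edgeR). The filter over the 24 reprogramming libraries was passed by 4 genes, Gdf3, Tdgf1, Lefty1 and Lefty2. Of these, the 2 Lefty genes were called between days 3 and 6, beside 9.12% of all genes tested in Cont and 18.6% in +Sm3CA. Both had 3 reads or fewer in each day 3 library and passed the filter through later libraries, so this count is a description.

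Gdf3 and Tdgf1 did not pass at that step. Gdf3 had 0 reads in each Cont day 3 library and 7, 2 and 1 on day 6 (adjusted p = 0.0635, edgeR), and 0, 4 and 1 against 4, 8 and 1 reads in +Sm3CA (adjusted p = 0.302, edgeR). Tdgf1 stayed at 1, 1 and 1 reads on day 3 and 1, 0 and 1 on day 6 in Cont, and at 0 reads against 1, 0 and 1 in +Sm3CA. The ligand and co-receptor libraries of day 6 thus held 8 reads or fewer each, while every Lefty2 library of day 6 held 16 or more.

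Between days 6 and 8 none of the 4 genes was called in either series, beside 1.69% of all genes in Cont and 6.68% in +Sm3CA. At an unadjusted p under 0.05 there was 1 in each, Tdgf1 in Cont and Gdf3 in +Sm3CA, and DESeq2 called 0 in both. The median log2 difference of the 4 genes was 0.84 in Cont and 0.56 in +Sm3CA, against 0.02 and 0.04 over all genes tested. Tdgf1 in Cont went from 1, 0 and 1 reads to 1, 13 and 8 (adjusted p = 0.131, edgeR), a ratio of 11.4 with a 95% counting interval of 2.8 to 99.8. Without the filter on low counts the adjusted p of Tdgf1 passed the threshold, so that the count was 1 in Cont.

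From day 8 to day 10 the ligand and the co-receptor rose in both series. Gdf3 had 7, 6 and 7 reads on day 8 and 39, 24 and 41 on day 10 in Cont, a log2 fold change of 2.70 ± 0.52 (adjusted p = 0.00147, edgeR). In +Sm3CA it went from 16, 4 and 25 reads to 75, 67 and 71, a log2 fold change of 3.10 ± 0.45 (adjusted p = 3.22e-05, edgeR). Neither series had a day 8 library that reached a day 10 library in normalized counts, and without replicate 3 of day 8 the +Sm3CA value was 3.85.

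Tdgf1 had 1, 13 and 8 reads on day 8 and 36, 45 and 140 on day 10 in Cont (log2 fold change 3.59 ± 0.53, adjusted p = 6.31e-05, edgeR). In +Sm3CA it had 0, 10 and 1 reads on day 8 and 83, 56 and 133 on day 10 (log2 fold change 5.52 ± 0.58, adjusted p = 4.49e-08, edgeR). The +Sm3CA value rested on 1 library for its size: without replicate 2 of day 8, which held 10 of the 11 reads, it was 7.96, and without replicate 2 of Cont day 8 the Cont value was 4.45 and without replicate 3 of Cont day 10 it was 2.90. All day 10 libraries were above all day 8 libraries.

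Lefty2 rose again at this step, from 39.6, 22.2 and 30.4 normalized counts to 64.2, 63.3 and 69.7 in Cont (log2 fold change 1.10 ± 0.30, adjusted p = 0.0353, edgeR). In +Sm3CA it went from 16.1, 21.4 and 23.4 to 75.7, 45.9 and 97.7 normalized counts (log2 fold change 1.85 ± 0.30, adjusted p = 0.00019, edgeR). Groups did not overlap in either series, but the Cont call was lost without any 1 of its 6 libraries, at log2 fold changes of 0.92 to 1.28 and adjusted p of 0.0511 to 0.191, and with all 30 libraries in 1 fit (adjusted p = 0.0725, edgeR). Lefty1 had 10, 7 and 20 reads on day 8 and 20, 7 and 8 on day 10 in Cont (adjusted p = 0.848, edgeR), and 4, 11 and 7 against 1, 8 and 2 in +Sm3CA (adjusted p = 0.953, edgeR). Thus 3 of the 4 genes passed between days 8 and 10 in each series, beside 2.4% of all genes in Cont and 4.85% in +Sm3CA, and the median log2 difference was 1.90 and 2.47 against 0.02 and -0.01 over all genes. Gdf3 and Tdgf1 had most of their reads on day 10 and passed the filter largely through them, so these counts and medians are a description.

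**Figure D2:**
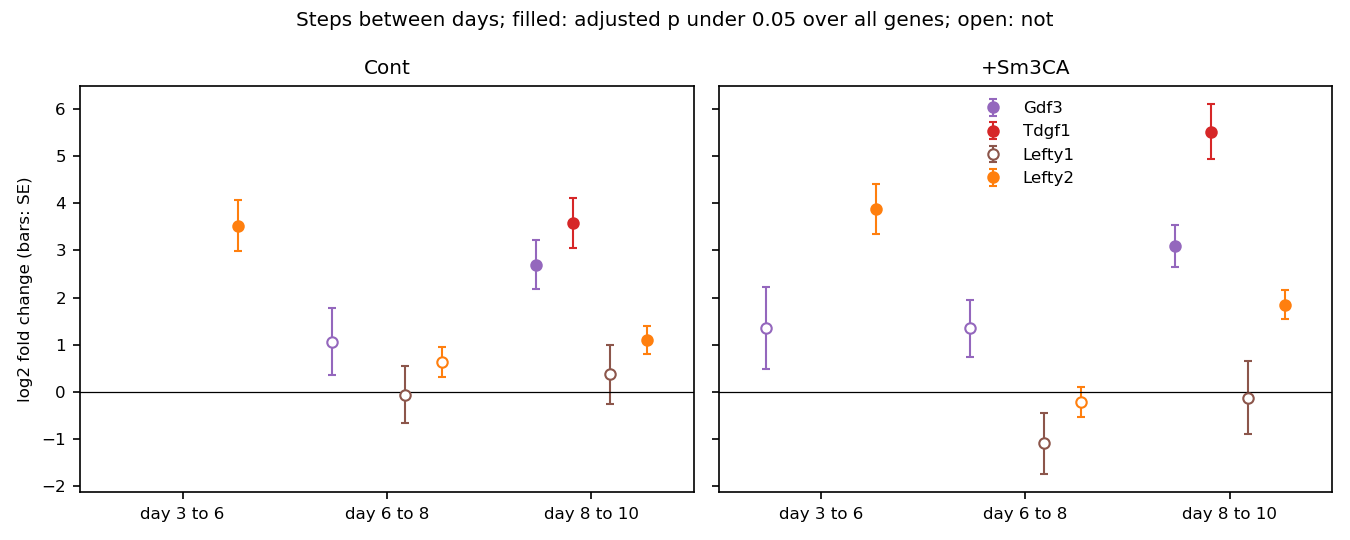
Fitted log2 fold change with its SE for each step between days (x axis) in Cont (left) and +Sm3CA (right), filled where the adjusted p was under 0.05; steps from a group with 3 reads or fewer are left out. Lefty2 changed by 3.53 and 3.88 from day 3 to day 6, and Tdgf1 by 3.59 and 5.52 from day 8 to day 10.

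Over the whole course, from day 3 to day 10, the 4 tested genes were higher in each series, beside 25.3% of all genes in Cont and 33.7% in +Sm3CA. For Gdf3 and Tdgf1 the filter was met largely through the day 10 libraries. The Lefty genes met it through libraries after day 3, so this count too is a description. Lefty2 changed by 5.26 ± 0.47 in Cont and 5.51 ± 0.47 in +Sm3CA on the log2 scale (adjusted p = 4.73e-11 and 1.44e-11, edgeR). Gdf3 was at least 39.98-fold higher in Cont, where day 3 held 0 reads, and in +Sm3CA the ratio was 59.4 (95% counting interval 25.04 to 185), with 4 of the 5 day 3 reads in replicate 2. Tdgf1 had a ratio of 84.9 (95% counting interval 28.7 to 415) in Cont and was at least 126-fold higher in +Sm3CA. Lefty1 was at least 13.5-fold higher in Cont, while in +Sm3CA 11 reads on day 10 stood against 1 read on day 3, a ratio of 15.3 (95% counting interval 2.23 to 659.7). That last call (adjusted p = 0.0272, edgeR) was lost without replicate 1 or replicate 2 of day 3 (adjusted p = 0.0986 and 0.0894) and without replicate 2 of day 10 (adjusted p = 0.269), all by edgeR.

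The 4 genes that failed the filter over the time course were followed by their reads. Nodal itself had 0 reads in each library of days 3, 6 and 8 in both series, in all 9 wells of each group, and appeared only on day 10, with 0, 1 and 5 reads in Cont and 2, 2 and 4 in +Sm3CA. Foxh1 had 0 reads in each day 3 library, at most 5 on days 6 and 8, and on day 10 1, 1 and 7 reads in Cont and 4, 10 and 5 in +Sm3CA. Acvr1b had 0 to 9 reads in every reprogramming library, and all neighbours in the order of its group means overlapped. Over a longer span, its +Sm3CA day 10 libraries, with 5, 3 and 3 reads, stood above day 3, with 1 in each, at a ratio of 5.11 (95% counting interval 1.35 to 28.5). Cont day 10, with 2, 4 and 5 reads, stood above day 8, with 1, 1 and 4, in normalized counts, at a ratio of 2.37 (95% counting interval 0.805 to 7.82), and neither was tested. Acvr2b already had 14, 5 and 6 reads in Cont day 3 and 2, 2 and 8 in +Sm3CA day 3, against 0 in MEF, and then showed no order over the days. On day 10 Acvr2b had 5, 6 and 0 reads in Cont and 5, 5 and 0 in +Sm3CA. Replicate 3 was thus at 0 in both series. Among the 8 genes, Acvr2b alone stood above MEF without overlap in both series on day 3, with no test made.

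The central comparison of the study was between +Sm3CA and Cont on the same day, which share plate rows. None of the 4 tested genes passed on any day with edgeR's quasi-likelihood test, beside shares of all genes of 0.0195% (day 3), 0.00977% (day 6), 1.04% (day 8) and 3.58% (day 10). At an unadjusted p under 0.05 there was 1 gene on day 3, 0 on days 6 and 8 and 2 on day 10, and DESeq2 called 0 on each day. The median log2 difference of the 4 genes was 0.22 on day 6, -0.81 on day 8 and 0.38 on day 10, against 0.01, 0.00 and -0.01 over all genes tested. On day 3 it was 0.89 against 0.00, but 3 of the 4 genes had a group at 0 reads there, so that this value depends on the fit. The day 6 median depends on it in part as well, since Tdgf1 had only 2 reads in each series (0.17 ± 1.68).

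Gdf3 came nearest on day 10, when it had 48.1, 28.7 and 38.6 normalized counts in Cont and 105, 73.2 and 92.5 in +Sm3CA. Each +Sm3CA library was above each Cont library, and the log2 fold change was 1.24 ± 0.41, with an adjusted p of 0.0856 by edgeR (unadjusted p = 0.00416). The ratio of summed reads was 2.31 with a 95% counting interval of 1.82 to 2.95. Without the filter on low counts Gdf3 was called (log2 fold change 1.25, adjusted p = 0.0143, edgeR), and leaving out a library gave 1.08 to 1.44 on the log2 scale. Gdf3 on day 8 was at 0.84 ± 0.56 (adjusted p = 0.511, edgeR), which fell to 0.09 without replicate 3 of +Sm3CA.

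Tdgf1 on day 10 was at 44.4, 53.8 and 132 normalized counts in Cont and at 116, 61.2 and 173 in +Sm3CA, with overlap (log2 fold change 0.60 ± 0.41, adjusted p = 0.51, edgeR). Replicate 3 of Cont held the high value, and without it the log2 fold change was 1.28 (adjusted p = 0.195, edgeR). On day 8 the fitted differences of Tdgf1 and Lefty2 were negative, at -1.34 ± 0.77 (adjusted p = 0.426, edgeR) and -0.58 ± 0.32 (adjusted p = 0.382, edgeR), and both genes overlapped between the series. The Tdgf1 value was -3.78 without replicate 2 of +Sm3CA and -0.46 without replicate 2 of Cont.

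Lefty1 had negative differences on both days. On day 8 it had 11.3, 7.39 and 11.9 normalized counts in Cont and 2.47, 6.74 and 5.65 in +Sm3CA, without overlap (log2 fold change -1.04 ± 0.65, adjusted p = 0.473, edgeR). On day 10 Lefty1 had 24.7, 8.36 and 7.54 in Cont and 1.40, 8.74 and 2.60 in +Sm3CA, with overlap (log2 fold change -1.53 ± 0.72, adjusted p = 0.284, unadjusted p = 0.041, edgeR), and leaving out a library moved this from -2.62 to -0.77.

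Lefty2, in contrast, was nearly level between the series on day 10, at 65.8 ± 3.47 normalized counts in Cont and 73.1 ± 26.0 in +Sm3CA. The log2 fold change was 0.16 ± 0.29 (adjusted p = 0.844, edgeR), and without replicate 3 of +Sm3CA it turned to -0.10. An interaction term for the change of the +Sm3CA effect between days 3 and 10 passed for none of the 4 genes, beside 1.01% of all genes, with 0 at an unadjusted p under 0.05 and 0 by DESeq2.

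For the 4 genes below the filter an exact permutation test over the 3 and 3 libraries of day 10 cannot go below a p of 0.1. Nodal had 6 reads in Cont and 8 in +Sm3CA (exact p = 0.4, two-sided), and Foxh1 had 9 and 19 (exact p = 0.3, two-sided). Acvr1b had 11 reads in each (exact p = 0.7, two-sided) and Acvr2b 11 and 10 (exact p = 0.8, two-sided). At these read numbers a difference was not detectable rather than absent. The ratio for Foxh1 was 2.39 with a 95% counting interval of 1.03 to 5.99, which leaves out the spread between replicates. On the same day the ESC marker sum was higher in each +Sm3CA library than in each Cont library, and the fibroblast marker sum was lower, at 414 to 484 against 577 to 1235 normalized counts. Their part in the values of the 8 genes was not tested.

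**Figure D3:**
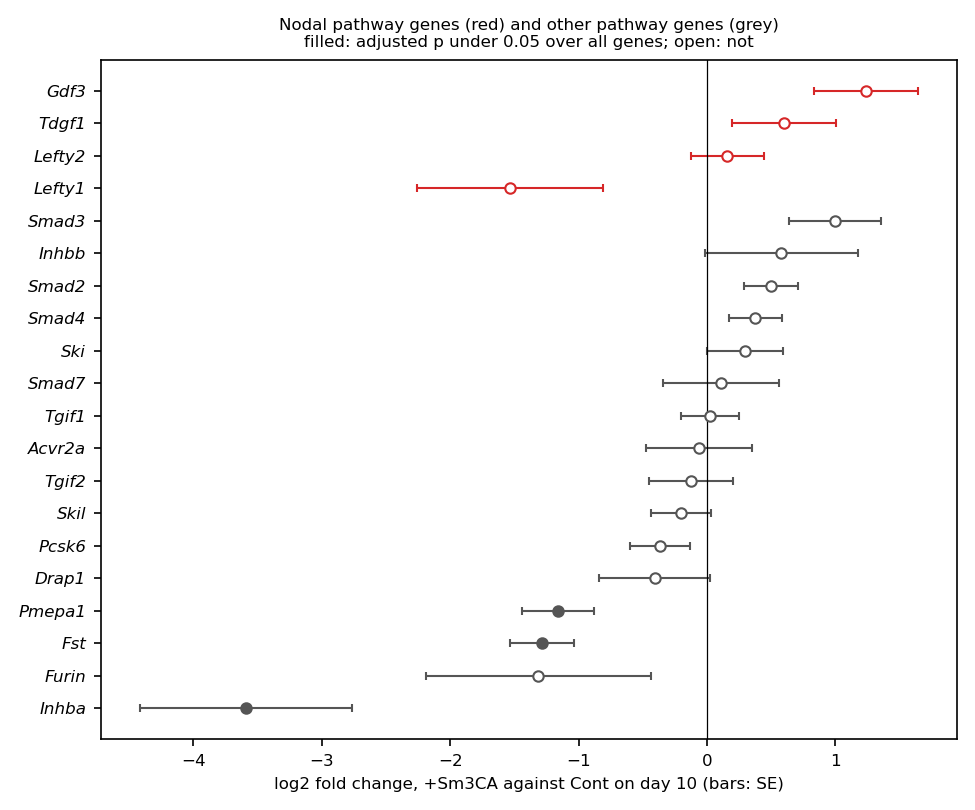
Fitted log2 fold change and SE of +Sm3CA against Cont on day 10 for the 4 tested genes (red) and for 16 other pathway genes (grey), filled where the adjusted p over all genes was under 0.05. The red points are all open, from 1.24 for Gdf3 to -1.53 for Lefty1, and the filled grey points are Pmepa1, Fst and Inhba, the last at -3.59.

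Day 10 was then set against ESC to see how far each gene had come. As a share of its ESC mean, Lefty2 was at 14.2% on day 6, 22.1% on day 8 and 47.3% on day 10 in Cont, and at 16.6%, 14.6% and 52.6% in +Sm3CA. Gdf3 was at 0.713%, 1.72% and 10.8% in Cont and at 1.03%, 3.04% and 25.3% in +Sm3CA. Tdgf1 had reached 5.76% in Cont and 8.78% in +Sm3CA on day 10, and Nodal 3.41% and 5.88%. The Lefty genes, which lie side by side on chromosome 1, parted over this time. Lefty1 was at 13.2%, 12.7% and 16.9% of ESC in Cont and at 12.5%, 6.18% and 5.3% in +Sm3CA. Foxh1 was at 10.6 ± 10.9% in Cont and 27.0 ± 9.99% in +Sm3CA on day 10 (SD, n = 3). The ESC libraries themselves lay at 38.1% to 140% of their mean for Foxh1 and at 38.0% to 153% for Gdf3.

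**Figure D4:**
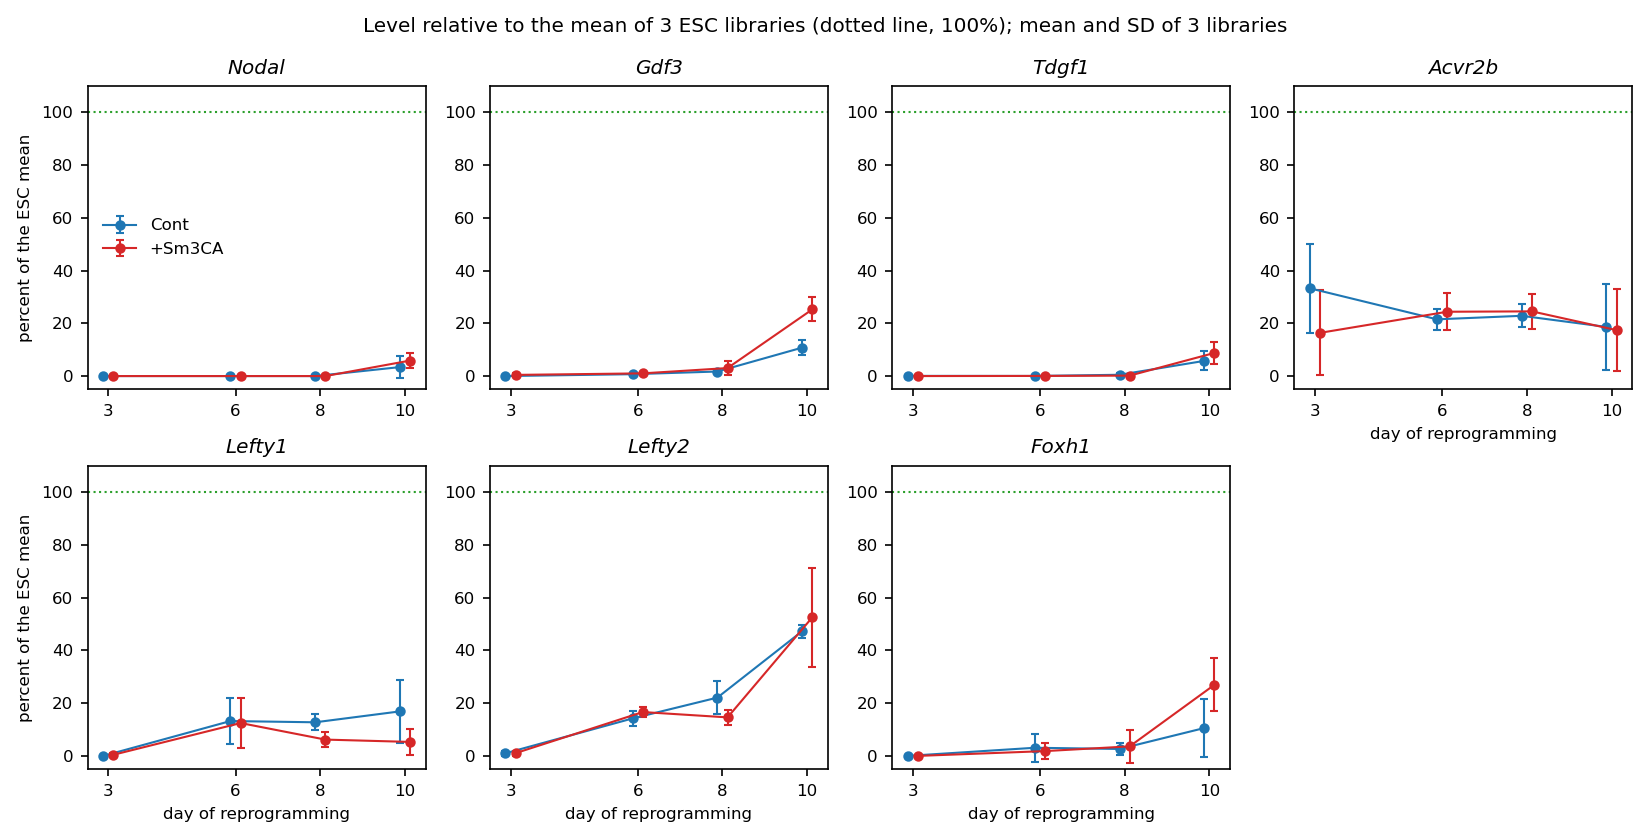
Mean and SD of 3 libraries as a percent of the ESC mean (y axis) on days 3, 6, 8 and 10 (x axis) for the 7 genes with reads in ESC, Cont in blue and +Sm3CA in red. Lefty2 is nearest to its ESC level on day 10, at 47.3% and 52.6%, and Nodal and Tdgf1 are below 10% in both series.

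Against ESC, 7 of the 8 genes passed the filter and were lower on day 10 in both series, beside 51.8% of all genes called against Cont and 45.8% against +Sm3CA. Nodal, Acvr2b and Foxh1 passed the filter only when ESC libraries were in the fit. The count, and the medians given next, are therefore a description. The median log2 difference of ESC over day 10 was 3.15 for Cont and 2.45 for +Sm3CA, while over all genes it was -0.15 in both. Tdgf1 was 4.11 ± 0.37 higher in ESC than in Cont on the log2 scale (adjusted p = 2.57e-12, edgeR) and 3.51 ± 0.36 higher than in +Sm3CA (adjusted p = 1.12e-10, edgeR).

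Gdf3 differed by 3.25 ± 0.40 from Cont and by 2.00 ± 0.37 from +Sm3CA (adjusted p = 9.31e-09 and 2.91e-05, edgeR), its ESC libraries standing above both. Lefty1 differed by 2.60 ± 0.52 and 4.11 ± 0.61 (adjusted p = 6.78e-05 and 6.4e-07, edgeR). Lefty2 had the smallest difference of the 7, at 1.07 ± 0.29 and 0.90 ± 0.29 (adjusted p = 0.00195 and 0.01, edgeR), and the second was lost without replicate 2 of +Sm3CA day 10 (0.65, adjusted p = 0.0981, edgeR). Single libraries moved these sizes: without replicate 1 of Cont the Lefty1 difference was 3.38, without replicate 2 of +Sm3CA it was 5.23, and without replicate 3 of Cont the Tdgf1 difference was 4.80. These comparisons share the 3 ESC libraries.

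The ligand Nodal was 26.8-fold higher in ESC than in Cont by summed reads (95% counting interval 12.01 to 74.2) and 17.8-fold higher than in +Sm3CA (8.79 to 41.98). Its edgeR calls (adjusted p = 7.11e-06 and 4.11e-05) were lost with DESeq2 (adjusted p = 0.374 and 0.472), and without replicate 3 of Cont, which held 5 of the 6 reads, the log2 difference from Cont rose from 4.69 to 6.36. Acvr2b was 2.46 ± 0.70 and 2.45 ± 0.71 higher in ESC on the log2 scale (adjusted p = 0.00331 and 0.00469, edgeR). Without replicate 3 of Cont, the Acvr2b difference was 1.83 and the Foxh1 difference from Cont went from 3.15 to 4.49. The Foxh1 call against Cont (adjusted p = 0.00204, edgeR) was lost with DESeq2 (adjusted p = 0.0638). Foxh1 in ESC, at 34.7, 10.8 and 39.9 normalized counts, overlapped with +Sm3CA day 10 at 5.61, 10.9 and 6.51 but not with Cont. Its difference from +Sm3CA (1.87 ± 0.77, adjusted p = 0.0445, edgeR) was lost under 8 alternatives, with the replicate block among them (1.71, adjusted p = 0.0864, edgeR), and by leaving out any library but replicate 2 of ESC. Acvr1b had 11 reads in each day 10 group and 0 in ESC, at least 3.28-fold and 3.71-fold lower in ESC; it failed the filter, and was called lower in ESC than in Cont and +Sm3CA without the filter (adjusted p = 0.0215 and 0.016, edgeR) and by DESeq2 (adjusted p = 0.0217 and 0.0165).

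The other genes of the Nodal and activin pathway were taken from a list of 28, of which 27 had a row and 16 passed the filter over the time course. In +Sm3CA against Cont, Smad3 with its vector reads was the 1 gene called on days 3 and 6. On day 8 Inhba, which encodes the activin A chain, was lower (-2.58 ± 0.64, adjusted p = 0.0356, edgeR) beside the higher Smad3. On day 10 3 of the 16 were lower and none higher, where over all genes 281 were lower and 85 higher (3.58% in all): Inhba (-3.59 ± 0.83, adjusted p = 0.0071), Fst (-1.29 ± 0.25, adjusted p = 0.00105) and Pmepa1 (-1.16 ± 0.28, adjusted p = 0.0105), all by edgeR. Fst encodes follistatin, which binds activin, and Pmepa1 is an inhibitor and target of TGF-β signaling.

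Inhba was at 628 ± 120 normalized counts in MEF and at 0 in ESC, and on day 10 at 21.02 ± 15.0 in Cont and 1.73 ± 0.933 in +Sm3CA. It was thus a ligand of the same receptors that went opposite to Nodal and Gdf3 between MEF and ESC. Its day 10 call was lost without replicate 3 of Cont (-2.81, adjusted p = 0.118) or without replicate 2 or 3 of +Sm3CA (adjusted p = 0.0624 and 0.0523), and its day 8 call without any Cont library or replicate 2 of +Sm3CA (adjusted p up to 0.191), all by edgeR. Fst was at 88.3 ± 12.8 in Cont and 35.4 ± 8.87 in +Sm3CA, without overlap and called with each library left out. Pmepa1 was at 78.7 ± 24.9 and 34.3 ± 11.2, and its call was lost without replicate 2 of Cont (adjusted p = 0.142, edgeR) or replicate 3 of +Sm3CA (adjusted p = 0.117, edgeR). These 3 genes were also lower in ESC than in MEF, and the fibroblast marker sum moved the same way.

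Between ESC and MEF 15 of the 27 were tested, with 3 higher in ESC (Pcsk6, Tgif1 and Tgif2) and 6 lower (Inhba, Furin, Smad3, Fst, Smad7 and Pmepa1), a share near the 52.3% of all genes called. Pcsk6 and Furin both encode convertases that process Nodal, and they went in opposite directions between MEF and ESC. The Pcsk6 call was lost under 5 alternatives and the Smad7 call under 6. Pcsk6 was at 4.9 normalized counts in MEF and 16.9 in ESC, but higher on day 10, at 64.4 in Cont and 49.3 in +Sm3CA. Tgif1, a nuclear repressor, was at 153 ± 28.4 normalized counts in MEF and 353 ± 54.6 in ESC. Among targets known from gastrulation, Mixl1 had 0 reads in all libraries, Eomes 18 and T 12 reads over the 3 ESC libraries. Gsc and Foxa2 had 0 reads in ESC. In +Sm3CA, Gsc had 6 reads on day 3, 5 of them in 1 library, and 2 on each of days 6 and 8. It had 0 reads in each Cont group, and it failed the filter. On day 10 Eomes had 0 reads in Cont and 6 in +Sm3CA. T had 7 reads in Cont day 10, 6 of them in 1 library, and 0 in +Sm3CA. Cfc1, the other co-receptor gene, had 19 reads over the ESC libraries, and Acvr1c had 0. During reprogramming Acvr1c had 4 reads in +Sm3CA day 3, 2 in Cont day 8, 11 in +Sm3CA day 8 and 0 in the other groups.

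By Pearson correlation of log2 levels over the 24 reprogramming libraries, the gene most like Tdgf1 among 10978 was Dppa5a (r = 0.939) and the one most like Gdf3 was Fam25c (r = 0.940), followed by Fbxo15 (r = 0.925). Nodal was most like Eras (r = 0.927) and Foxh1 like Wfdc2 (r = 0.872). Lefty2 was most like Mapt (r = 0.955) and Pou5f1 (r = 0.951), and reads of Pou5f1 can come from the MKOS transgene. Lefty1 was most like Arid4b (r = 0.828) and Acvr2b like Camk2g (r = 0.762). All of these values share libraries, depth and the order of days, and for Nodal and Foxh1 they rest on the few day 10 libraries with reads.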

How the data were processed

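RNA-seq was done with STRT, a method that reads the 5′ ends of transcripts, on sorted samples in 84 wells. The authors deposited 1 table of raw counts, with genes as rows and wells as columns. The submitters' processing notes name Bowtie 0.12.9, DESeq2 1.6.3 and mm10. The study's methods describe read and molecule counts and an analysis of the read counts, and the counts were taken as reads. Whether strand was used in counting is not given in the sources used here. The labels give 2500 cells per sample and the study's methods a lower number.

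The wells of a replicate, 3 or on day 10 2, were summed to 30 libraries. Normalized counts are counts divided by DESeq2 1.42.0 size factors. Tests used edgeR 4.0.16 (R 4.3.3) with the quasi-likelihood test, TMM scaling, filterByExpr and Benjamini-Hochberg adjustment over all genes tested, at a threshold of 0.05. The 24 reprogramming libraries were fitted together, MEF with ESC, and all 30 libraries where ESC was compared with day 10. Members that failed the filter were compared by an exact permutation test. A group with 3 reads or fewer in each library is called undetected, and a fold against 0 reads is given against 3 reads over the group. On counts simulated for the day 10 comparison, 200 genes were changed 4-fold. Of 9793 genes that passed the filter, 195 were changed ones, of which 161 were called with the right sign, and 4 of the other 9598 were called.

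The named genes are the 8 members, and other pathway genes where called in a contrast or at 0. For each member the genes with the highest correlation of log2 levels were named. The members and lists were chosen with earlier results of these data known. The promoter motifs were chosen later, the KLF motif after the Tdgf1 sequence was seen. The Tdgf1 and Nodal windows, Cfc1, Eomes, T and the reads of Gsc and Acvr1c outside ESC were picked after their values were seen. The design text pairs replicate numbers over the days of a series. Deviations of such pairs correlated at -0.08 to 0.14 (36 pairs), and those of Cont and +Sm3CA of 1 day at -0.12 to 0.08 (12 pairs). Alternatives were DESeq2 size factors, no filter on low counts, the replicate block, the DESeq2 Wald test, all 30 libraries in 1 fit and leaving out each library in turn.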

Additional observations from a re-analysis of the deposited data

Results flagged for a closer look

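The effect of +Sm3CA differed between days 3 and 10 for 3 pathway genes outside the 8 described, by a test of the interaction in edgeR. Inhba had an interaction of -4.45 on the log2 scale (adjusted p = 0.0122, edgeR), from means of 29.9 normalized counts in Cont and 53.2 in +Sm3CA on day 3 to 21.02 and 1.73 on day 10. For Fst the interaction was -1.44 (adjusted p = 0.0203, edgeR), from 78.7 and 88.6 to 88.3 and 35.4 normalized counts. Smad3, which includes vector reads, had an interaction of -2.54 (adjusted p = 0.00585, edgeR), from 10.9 and 133 to 20.6 and 41.6 normalized counts. Each call was lost when some single library was left out, for Smad3 only without replicate 3 of Cont day 10 (adjusted p = 0.0528), for Inhba without any of 4 libraries (adjusted p up to 0.111) and for Fst without any of 4 (adjusted p up to 0.107) and with all 30 libraries in 1 fit (adjusted p = 0.0791), all by edgeR.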

How the results depend on the processing

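Counts of the 8 genes called moved by more than 1.5 times under 1 alternative: without the filter on low counts, 1 gene instead of 0 was called for +Sm3CA against Cont on day 10 (Gdf3) and 1 instead of 0 for Cont day 8 against day 6 (Tdgf1). Of 179 values of such counts under the alternatives, the others stayed within 1.5 times of the main count, as far as 6 instead of 4 for +Sm3CA day 10 against day 3 with all 30 libraries in 1 fit. The direction of 1 value turned, Lefty2 in +Sm3CA against Cont on day 10, at -0.10 without replicate 3 of +Sm3CA, with 0.43 as the highest value when 1 library was left out. The replicate block took the ESC count against +Sm3CA day 10 from 7 to 6 by Foxh1 (1.71, adjusted p = 0.0864, edgeR), ended the calls of Pcsk6 and Smad7 between ESC and MEF (adjusted p = 0.0736 and 0.0691, edgeR) and changed no other call. Among single genes, 52 values lost their call and 1 gained it, and the losses among the 8 genes stand beside their results. Depth limited Nodal, Foxh1, Acvr1b and Acvr2b most, with at most 14 reads per reprogramming library.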

Other observations

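Of the markers of primed epiblast (Fgf5, Otx2 and Pou3f1), a state in which activin and Nodal signaling is needed, the summed level on day 10 was 0 to 2.83 normalized counts in the 3 Cont libraries, 7.01 to 14.3 in the 3 +Sm3CA libraries and 48.8 to 131 in ESC, without overlap. Otx2 was the only 1 of the 3 above 3 reads in a +Sm3CA day 10 library, so that this gene carried the sum there. No test was made on it. Of 5 markers of mesendoderm, Gata6 was the only 1 above 3 reads in a day 10 library, and Mixl1 was at 0 in each group. In ESC the only 1 above 3 reads in a library was Eomes. The sum was at 4.71 to 11.9 in Cont day 10, 3.91 to 8.74 in +Sm3CA day 10 and 5.42 to 11.6 in ESC. Of the trophoblast markers Elf5 and Gata3, both were at 0 in ESC. On day 10 their sums were 1.23 to 8.48 in Cont and 9.11 to 11.2 in +Sm3CA, also without overlap. Gata3 was at 0 in +Sm3CA day 10, so that Elf5 alone carried the sum there, and no test was made. The immune marker sum was 579 to 2501 in Cont day 10 and 821 to 1509 in +Sm3CA day 10, with overlap.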
